A study of Homo sapiens with 6 samples.

Results

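The genes described here are 37 human genes of tRNA charging: 35 aminoacyl-tRNA synthetase genes and the scaffold genes AIMP1 and AIMP2, of 60569 gene names in the deposited expression table. They were taken by gene symbol, from a list drawn up by function and not by expression level, with earlier results of these data known. They comprised 18 synthetases that work mainly in the cytosol, 16 of mitochondria, WARS1, which was set apart because interferon induces it, and the AIMP genes. MDA-MB-453 is an established line from a human breast carcinoma, of luminal apocrine type. Of 6 RNA libraries from it, 3 came from cells transfected with a control vector and 3 from cells transfected with a construct that overexpresses ZNF207, called the ZNF207 libraries here. ZNF207 is a microtubule-associated zinc finger protein of the spindle checkpoint. The 3 libraries of a group were separate biological replicates by the series' design text. Whether expression was transient or stable, whether cells were selected, and the time from transfection to harvest are not given in the sources at hand.

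Aminoacyl-tRNA synthetases join each amino acid to its matching tRNA and so supply the ribosome. Human cells keep separate nuclear genes for most cytosolic and mitochondrial enzymes, with names ending in 1 and 2. KARS1, GARS1 and, for glutamine, QARS1 are the familiar exceptions: KARS1 and GARS1 give rise to enzymes of both compartments, and mitochondria make glutaminyl-tRNA by an indirect route. Several cytosolic enzymes are held in the multi-synthetase complex by the scaffold proteins AIMP1, AIMP2 and EEF1E1. Many cytosolic synthetase genes are targets of ATF4, the transcription factor of the integrated stress response, which acts through a composite C/EBP-ATF response element. WARS1, the cytosolic tryptophanyl-tRNA synthetase, is in addition a classical target of interferon gamma, through interferon-stimulated response elements and gamma-activated sites.

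The promoter sequences that bear on these 2 inputs are shown because they mark which members carry the letters of an ATF4 or an interferon element. RefSeq windows on GRCh38.p14 from 250 bases before to 50 bases after a listed transcription start were at hand for 32 of the 37 members. The motifs searched, on both strands, were TGATGNAA for the C/EBP-ATF element, GAAA followed by any 2 bases and GAAA again for the interferon-stimulated element, and TTCNNNGAA, which reads the same on both strands, for the gamma-activated site. Each line gives 30 bases 5′ to 3′ on the strand of the gene, with the match in capitals, and matches of different motifs did not overlap in a member.
WARS1 interferon-stimulated element, chr14:100375383-100375412, minus strand: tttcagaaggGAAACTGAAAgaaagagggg
WARS1 gamma-activated site, chr14:100375470-100375499, minus strand: gctcaagtgtTTCTGAGAAtctgggtgatt
AARS1 C/EBP-ATF element, chr16:70289675-70289704, minus strand: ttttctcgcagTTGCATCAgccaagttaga
CARS1 C/EBP-ATF element, chr11:3057407-3057436, minus strand: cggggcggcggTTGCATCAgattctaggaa
GARS1 C/EBP-ATF element, chr7:30594834-30594863, plus strand: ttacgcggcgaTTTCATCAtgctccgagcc
IARS1 C/EBP-ATF element, chr9:92293692-92293721, minus strand: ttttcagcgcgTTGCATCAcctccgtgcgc
MARS1 C/EBP-ATF element, chr12:57488053-57488082, plus strand: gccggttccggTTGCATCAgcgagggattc
TARS1 C/EBP-ATF element, chr5:33440956-33440985, plus strand: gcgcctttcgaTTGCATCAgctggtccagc
YARS2 C/EBP-ATF element, chr12:32756076-32756105, minus strand: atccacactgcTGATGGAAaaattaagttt

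The C/EBP-ATF letters were found in 7 of 16 cytosolic members with a window, those printed above and NARS1, and in 1 of 14 mitochondrial members, YARS2. They occurred in 3.62% of all 35116 windows and in 4.46% of 27305 genes with a window. In AARS1, CARS1, IARS1, MARS1 and TARS1 the 8 matched bases were identical, TTGCATCA, and the GARS1 match was TTTCATCA. The interferon-stimulated letters were found in WARS1 and EARS2, against 4.38% of genes, and the gamma-activated letters in WARS1, WARS2, CARS1, TARS1 and PARS2, against 9.38% of genes. WARS1 was the only member with a match to both interferon motifs. Its interferon-stimulated match began 55 bases and its gamma-activated match 142 bases before a start that lies inside the gene (chromosome 14, 100333790 to 100376327, minus strand). A match is a description of the letters and does not show binding.

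Values are FPKM, fragments normalised for transcript length and sequencing yield, and sums per library ran from 589360 to 612711. The read depth is unknown, so no counting intervals are given. ZNF207 itself averaged 66.6 ± 2.78 FPKM with the vector and 807 ± 69.9 FPKM with the construct (SD, n = 3 each), a log2 change of 3.58 (limma adjusted p = 4.03e-09). All 8 luminal markers were expressed, among them GATA3, SPDEF and ERBB2, while the basal, leukocyte and endothelial markers all lay below the filter of 1 FPKM in 3 libraries. Of the fibroblast markers COL1A1 alone passed it, at 10.2 FPKM in controls and 9.09 FPKM in ZNF207 libraries. In bulk RNA, fewer cells of a type and less RNA per cell cannot be told apart.

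The question of the design was how overexpression of ZNF207 altered the transcriptome of these cells. No member passed the test: 0 of 37 had an adjusted p under 0.05 (limma on log2(FPKM + 1), Benjamini-Hochberg adjustment over all 13185 tested genes). Among all tested genes 28 passed, or 0.212%, with 0.0531% higher and 0.159% lower. All 37 members passed the filter on low values. At an unadjusted p under 0.05 there were 3 members, or 8.11%, against 12.1% of all tested genes. Of these WARS1 and QARS1 were higher, against a background of 5.08%, and LARS1 was lower, against 7.03%. The 3 ZNF207 libraries all lay above the 3 controls for WARS1, HARS1 and YARS2, which is 8.11% of the members against 7.61% of all tested genes. They all lay below for LARS1, EARS2 and IARS2, again 8.11% of the members, against 10.4%. Each of these shares of the members is near the background or below it.

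The median log2 change was -0.0025 over the 37 members and -0.0078 over all tested genes. Estimates were above 0 in 18 members and below 0 in 19. Apart from WARS1 they ran from -0.16 for LARS1 to 0.17 for QARS1. The 95% confidence intervals of these 36 genes reached from -0.37, the lower bound of GARS1, to 0.36, the upper bound of FARS2. The members' summed FPKM was 0.316% to 0.325% of the library total in controls and 0.325% to 0.327% in ZNF207 libraries.

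**Figure D1:**
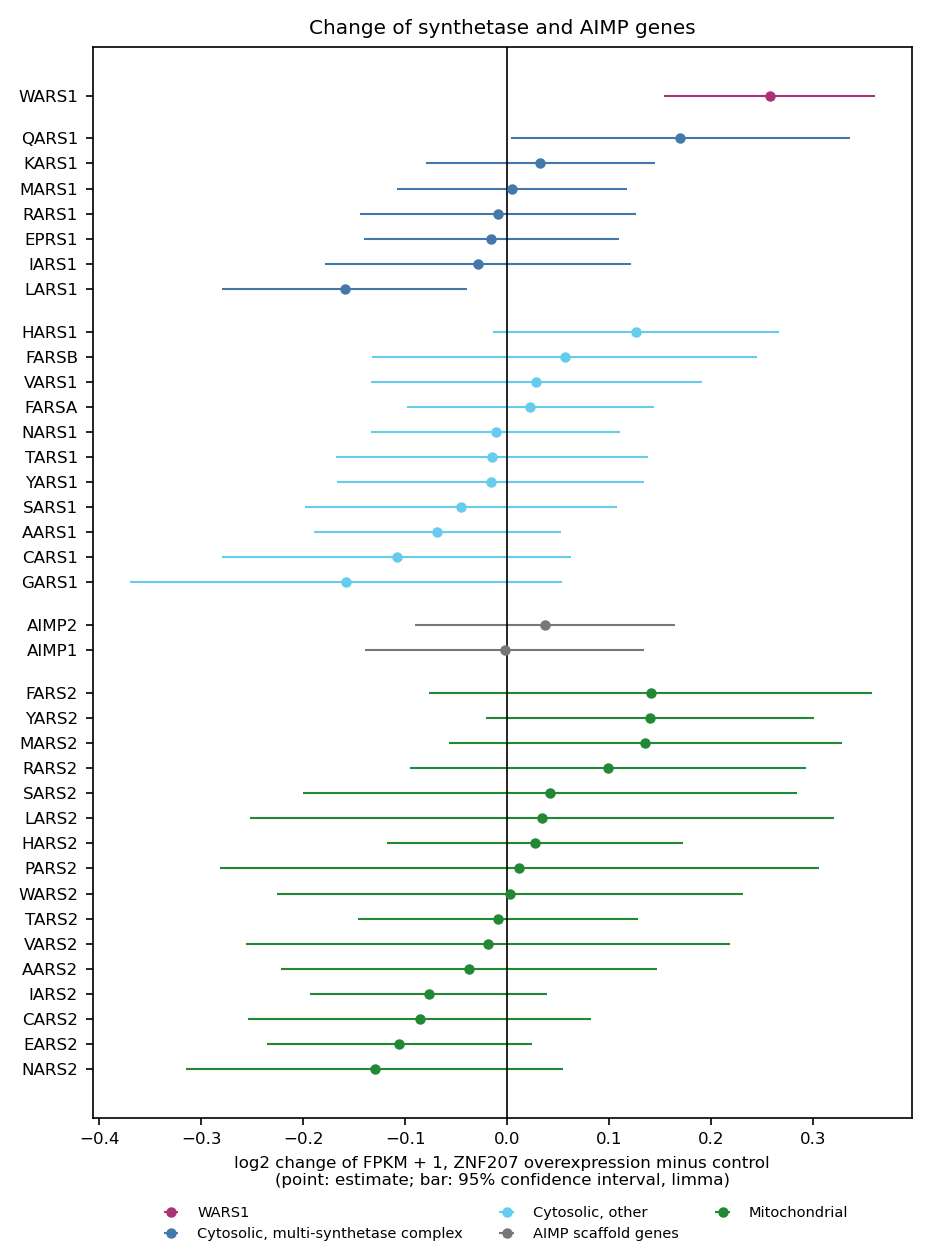
Change of each of the 37 genes on the log2(FPKM + 1) scale, ZNF207 overexpression minus control (x axis), by role (colour); points are estimates and bars 95% confidence intervals from limma with 3 libraries per group. WARS1 lies farthest from 0 at 0.26, and the intervals of WARS1, QARS1 and LARS1 alone leave out 0 before adjustment.

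WARS1 showed the largest difference of the 37 genes. Its level was 128, 131 and 131 FPKM in the controls and 153, 156 and 157 FPKM in the ZNF207 libraries. The groups were far apart relative to their spread, at 130 ± 1.49 and 155 ± 1.97 FPKM (SD, n = 3 each). The mean was 1.20 times that of controls. The log2 change was 0.26 (SE 0.05, 95% interval 0.15 to 0.36), with an unadjusted p of 0.00028 and a limma adjusted p of 0.0672, which misses the threshold. By p it ranked 55 of 13185 genes. The exact two-sided permutation p was 0.1, and 3 against 3 libraries cannot give a smaller one. The 16 alternatives to this fit were 10 other settings of the analysis and 6 fits that each left out a library. WARS1 passed the threshold under 3 of the 10 settings and under none of the 6 fits. Its estimate stayed between 0.25 and 0.28 under all 16. Its share of the summed FPKM was 0.0213% to 0.0215% in controls and 0.0257% to 0.0262% in ZNF207 libraries. The WARS1 transcript shares 213 identical bases with WDR25, a gene at 7.69 FPKM on average, so the division of fragments over these bases is uncertain.

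WARS2, the mitochondrial tryptophanyl-tRNA synthetase, gave no such difference. It stood at 8.14, 7.55 and 8.22 FPKM in controls and at 8.73, 6.95 and 8.36 FPKM in ZNF207 libraries, with a log2 change of 0.0026 (SE 0.10, limma adjusted p = 0.995). The ratio of WARS1 to WARS2 was 15.7, 17.3 and 15.9 in controls and 17.5, 22.5 and 18.8 in ZNF207 libraries. These ratios did not overlap between the groups. Their log2 difference was 0.25 (exact two-sided permutation p = 0.1, the smallest possible, and 0.567 after adjustment over 17 pairs of cytosolic and mitochondrial enzymes).

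**Figure D2:**
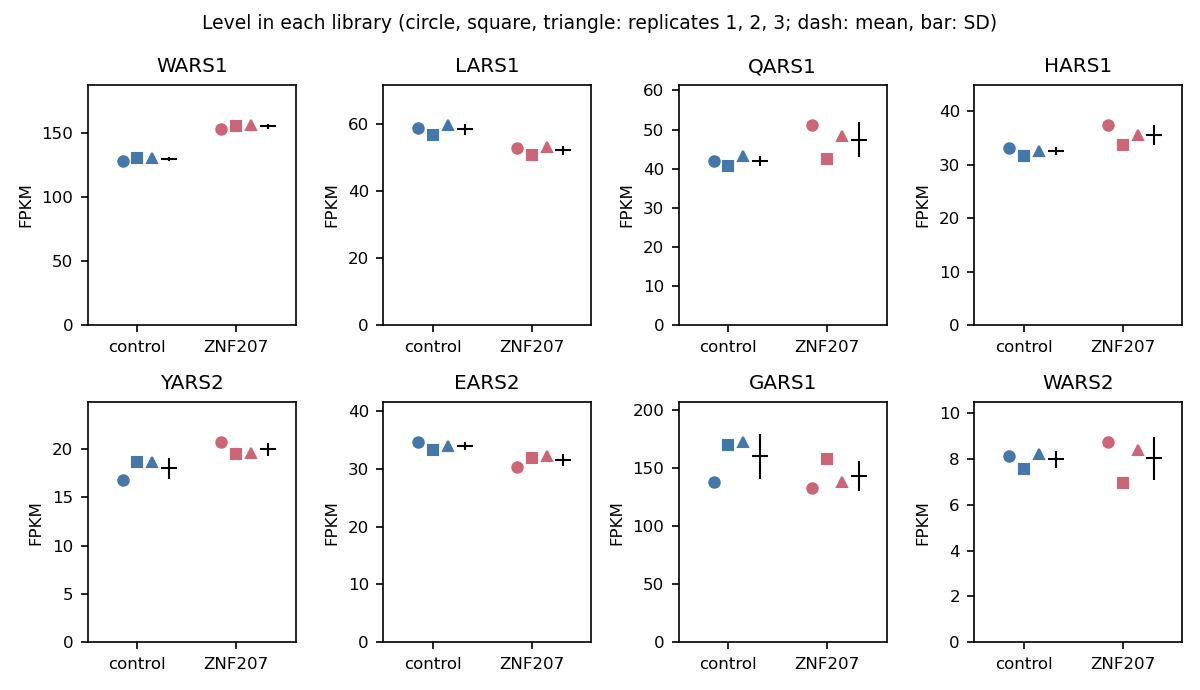
FPKM (y axis, from 0) of 8 members in each library, controls on the left and ZNF207 overexpression on the right of each panel; circles, squares and triangles are replicates 1, 2 and 3, and the dash with its bar is the mean ± SD of 3 libraries. WARS1 runs from 128 to 131 FPKM in controls and from 153 to 157 FPKM in ZNF207 libraries, while the GARS1 and WARS2 groups overlap.

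The 7 synthetases of the multi-synthetase complex had a median log2 change of -0.0090, with 3 estimates above 0 and 4 below. LARS1, which charges leucine tRNA and also takes part in leucine sensing, had the smallest p among them. It stood at 58.9, 56.7 and 59.9 FPKM in controls and at 52.9, 50.7 and 53.1 FPKM in ZNF207 libraries. The groups did not overlap, and the log2 change was -0.16 (SE 0.05, 95% interval -0.28 to -0.04, limma adjusted p = 0.27). QARS1, the glutaminyl-tRNA synthetase, differed in the other direction. Its controls were at 41.9, 40.6 and 43.1 FPKM and its ZNF207 libraries at 51.3, 42.5 and 48.3 FPKM. The groups overlapped because overexpression replicate 2 lay within the control range, and the log2 change was 0.17 (SE 0.07, limma adjusted p = 0.401).

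KARS1, the lysyl-tRNA synthetase, was the most abundant member after GARS1 in controls and differed little. Its levels were 157, 147 and 153 FPKM in controls and 161, 153 and 154 FPKM in ZNF207 libraries (log2 change 0.03, limma adjusted p = 0.844). The other 4 enzymes of the complex lay closer to 0 still. MARS1, for methionine, had a log2 change of 0.0047, RARS1, for arginine, -0.0090, EPRS1, the fused enzyme for glutamate and proline, -0.016 and IARS1, for isoleucine, -0.03, with limma adjusted p-values between 0.904 and 0.98. MARS1 overlaps the stress gene DDIT3, with 289 identical bases shared, so its value is uncertain. The scaffold gene AIMP1 was at 35.4, 32.7 and 34.4 FPKM in controls and at 35.4, 33.0 and 34.0 FPKM in ZNF207 libraries (log2 change -0.0025, limma adjusted p = 0.992). AIMP2 was at 63.6, 67.0 and 68.4 FPKM and at 64.8, 69.6 and 69.8 FPKM (0.04, limma adjusted p = 0.844). AIMP2 overlaps EIF2AK1 over 533 bases of its transcript and shares that uncertainty. The estimates for both scaffold genes lay within their standard errors.

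The other 11 cytosolic synthetases had a median log2 change of -0.015, with 4 estimates above 0 and 7 below. HARS1, the histidyl-tRNA synthetase, was at 33.1, 31.6 and 32.6 FPKM in controls and at 37.4, 33.6 and 35.6 FPKM in ZNF207 libraries. The groups did not overlap, but the log2 change of 0.13 (SE 0.06) had a limma adjusted p of 0.46. HARS1 and its mitochondrial counterpart HARS2 lie head to head on chromosome 5, with their starts 84 bases apart, and their transcripts share 333 identical bases. How reads were divided between them is not stated in the labels. HARS1 also shares 219 identical bases with WDR55, which adds to the uncertainty of its value. HARS2 had a log2 change of 0.03 (limma adjusted p = 0.907).

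GARS1, the glycyl-tRNA synthetase, was the most abundant member in controls, and its control replicates spread more than those of any other cytosolic member. It stood at 138, 170 and 173 FPKM in controls and at 133, 158 and 138 FPKM in ZNF207 libraries. Control replicate 1 was low and lay among the ZNF207 libraries. The log2 change was -0.16 (SE 0.09, limma adjusted p = 0.547). When single libraries were left out, it ran from -0.26 without control replicate 1 to -0.10 without control replicate 3 (limma adjusted p = 0.218 and 0.721). CARS1, for cysteine, was at 23.1, 23.6 and 24.4 FPKM in controls and at 19.9, 22.3 and 23.7 FPKM in ZNF207 libraries, which overlapped (-0.11, SE 0.08, limma adjusted p = 0.618).

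Of the remaining 8 cytosolic enzymes outside the complex, AARS1, for alanine, went from 137 to 131 FPKM (log2 change -0.07, limma adjusted p = 0.663) and SARS1, for serine, from 124 to 121 FPKM (-0.05, adjusted p = 0.842). NARS1, TARS1 and YARS1, for asparagine, threonine and tyrosine, had log2 changes of -0.011, -0.015 and -0.016, and VARS1, for valine, had 0.03. FARSA and FARSB encode the subunits of the cytosolic phenylalanyl-tRNA synthetase, an enzyme built of equal numbers of each. FARSA stood at 91.2 FPKM in controls and FARSB, the lowest cytosolic member, at 9.43 FPKM. FARSB was at 9.94, 8.66 and 9.69 FPKM with the vector and at 9.89, 9.72 and 9.88 FPKM with the construct, and the groups overlapped. The ratio of FARSA to FARSB was 9.68 ± 0.305 in controls and 9.42 ± 0.33 in ZNF207 libraries (SD, n = 3 each) (exact two-sided permutation p = 0.5). FARSA had a log2 change of 0.02 and FARSB of 0.06.

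The 12 cytosolic synthetases linked to ATF4 were compared with the other 6. None of either set passed the test. The ATF4-linked set had a median log2 change of -0.02, with 2 estimates above 0 (MARS1 and VARS1) and 10 below, and the other 6 had 0.04, with 5 above and 1 below. These counts depend on scaling. With values rescaled to equal library sums, EPRS1, NARS1, TARS1 and YARS1 of the ATF4-linked set rose above 0. RARS1 of the other 6 did so too. Split instead by the promoter letters printed above, the 7 cytosolic members with TGATGNAA had a median of -0.03, with 1 above 0 and 6 below. The 8 members other than WARS1 whose window lacks it had 0.03, with 5 above and 3 below. The 7 members with TGATGNAA all belong to the 12 ATF4-linked synthetases, so these splits are not independent. Per library, the mean log2(FPKM + 1) of the 12 ATF4-linked synthetases was 6.18, 6.17 and 6.22 in controls and 6.11, 6.15 and 6.17 in ZNF207 libraries. All ZNF207 values lay below the controls, the nearest by a narrow margin, and the group means differed by -0.05. The share of these 12 genes in the summed FPKM was 0.168%, 0.168% and 0.173% in controls. It was 0.162%, 0.169% and 0.165% in ZNF207 libraries, so by share the groups overlapped. For the other 6 synthetases the means were 5.70, 5.60 and 5.69 with the vector and 5.76, 5.67 and 5.75 with the construct, which overlapped. The difference between the sets was not tested. By catalytic class, the 18 class I enzymes had a median of -0.0032 and the 16 class II enzymes 0.0016, with EPRS1, which holds both kinds of domain, left out.

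The 16 mitochondrial synthetases had a median log2 change of 0.0073, with 9 estimates above 0 and 7 below, and limma adjusted p-values from 0.475 to 0.995. YARS2, for tyrosine and the carrier of a C/EBP-ATF match, had the smallest p. It stood at 16.7, 18.7 and 18.6 FPKM in controls and at 20.7, 19.5 and 19.6 FPKM in ZNF207 libraries. The groups did not overlap, and the log2 change was 0.14 (SE 0.07, limma adjusted p = 0.475). EARS2, for glutamate, was at 34.6, 33.2 and 33.9 FPKM in controls and at 30.3, 31.8 and 32.2 FPKM in ZNF207 libraries (-0.11, SE 0.06, limma adjusted p = 0.505). EARS2 carries an interferon-stimulated match as WARS1 does, and whether the match bears on its level was not tested.

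IARS2, for isoleucine, was the most abundant mitochondrial synthetase, at 54.8, 54.7 and 55.5 FPKM in controls and 51.5, 51.0 and 53.7 FPKM in ZNF207 libraries. Its groups did not overlap, but the log2 change was only -0.08 (SE 0.05, limma adjusted p = 0.602). NARS2, for asparagine, had the lowest estimate. It was at 18.2, 16.3 and 15.6 FPKM in controls and 16.2, 14.5 and 14.8 FPKM in ZNF207 libraries, which overlapped (-0.13, SE 0.08, limma adjusted p = 0.573). PARS2, for proline, was the least abundant of all members, at 3.73, 3.44 and 3.55 FPKM in controls and 3.35, 3.15 and 4.42 FPKM in ZNF207 libraries, which overlapped (0.012, SE 0.13, limma adjusted p = 0.981). FARS2 and MARS2, for phenylalanine and methionine, had estimates of 0.14 each and RARS2, for arginine, 0.10, with limma adjusted p-values of 0.609, 0.573 and 0.697. CARS2, for cysteine, had -0.09, and the other 6 mitochondrial members (AARS2, LARS2, SARS2, TARS2, VARS2 and WARS2) lay between -0.04 for AARS2 and 0.04 for SARS2. SARS2 shares 349 identical bases with MRPS12, and 1493 of its 2057 transcript bases with an annotated gene that has no symbol. VARS2 shares 1123 identical bases with GTF2H4, so the values of SARS2 and VARS2 are uncertain. The median of the mitochondrial set was 0.061 without overexpression replicate 2 and -0.027 without overexpression replicate 3.

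The distance between the compartments differed between groups by less than the spread between replicates. The mean log2(FPKM + 1) of the 18 cytosolic members less that of the 16 mitochondrial members was 2.09, 2.03 and 2.09 in controls and 2.03, 2.08 and 2.03 in ZNF207 libraries. The group means were 2.07 ± 0.0325 and 2.05 ± 0.0284 (SD, n = 3 each), and the groups overlapped. Paired by amino acid, the cytosolic gene was the higher in all 6 libraries in 16 of 17 pairs, with a median control ratio of 5.78. The exception was HARS1 and HARS2, which were level in control replicate 2. EPRS1 and FARS2 each enter 2 of the pairs.

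Ratios ran from 1.08 ± 0.0724 for HARS1 to HARS2 up to 16.3 ± 0.851 for WARS1 to WARS2 in controls (SD, n = 3 each). Between groups 3 of the 17 ratios did not overlap. Beside the ratio of WARS1 to WARS2, the ratio of LARS1 to LARS2 was 8.37, 8.44 and 8.49 in controls and 7.97, 8.33 and 5.97 in ZNF207 libraries. The overexpression values lay below the controls, with replicate 3, where LARS2 was at 8.90 FPKM, far below the other two. The ratio of YARS1 to YARS2 was 2.48, 1.94 and 1.98 in controls and 1.86, 1.90 and 1.92 in ZNF207 libraries, where control replicate 1 stands high. Both had an exact two-sided permutation p of 0.1, which is 0.567 after adjustment over the 17 pairs.

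**Figure D3:**
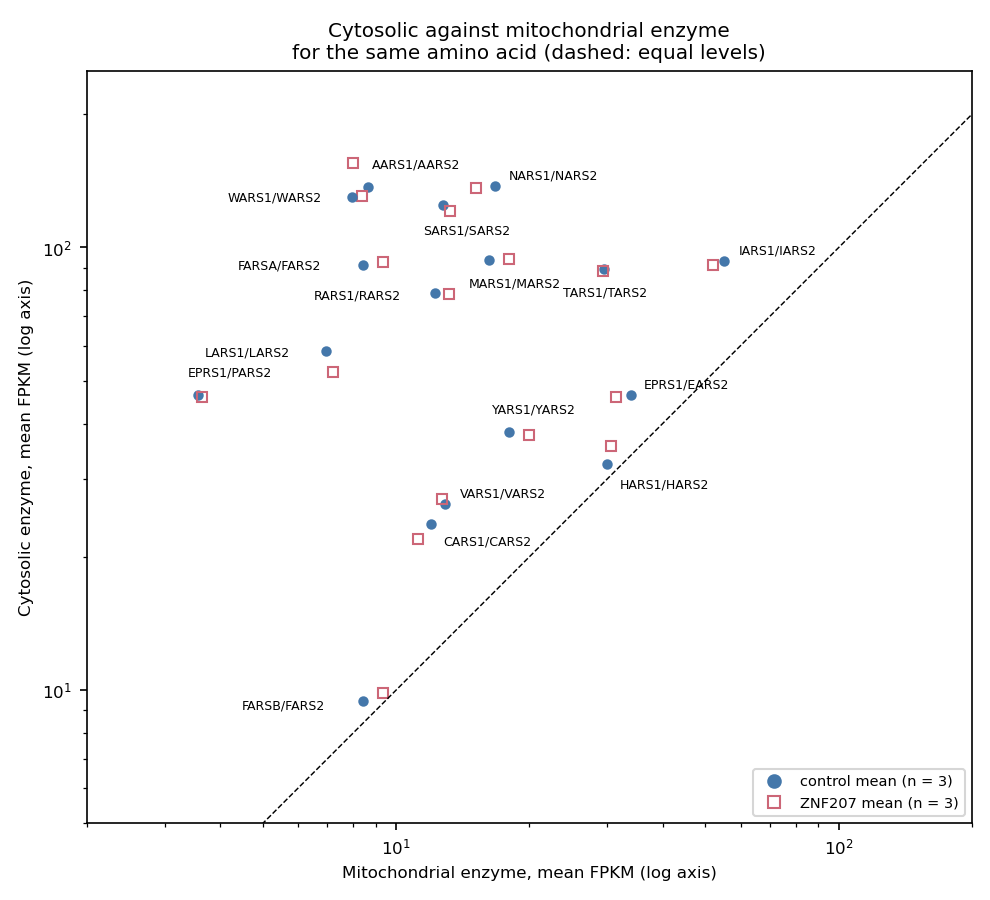
Mean FPKM of the cytosolic enzyme (y axis, log scale) against that of the mitochondrial enzyme for the same amino acid (x axis, log scale), 3 libraries per mean; filled circles are controls, open squares ZNF207 overexpression, and the dashed line marks equal levels. All mean values lie above the line, the WARS1/WARS2 square lies above its circle, and other squares stay close to theirs.

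The neighbouring pathways were read from lists drawn up by function, with earlier results of these data known. A list of 28 genes held ATF4 itself and its targets in amino acid synthesis, uptake and stress signalling, and 0 passed the test, with a median log2 change of -0.03, 10 estimates above 0 and 18 below. At an unadjusted p under 0.05, 1 of the 28 was higher, against 5.08% of all tested genes, and 5 were lower, against 7.03%. The smallest p-values belonged to STC2, a secreted glycoprotein induced by stress, at 89.4 ± 12.3 FPKM with the vector and 65.8 ± 7.63 FPKM with the construct (log2 change -0.43, limma adjusted p = 0.137), and to SLC7A5, a leucine transporter, at 1863 ± 130 and 1601 ± 72.6 FPKM (-0.22, adjusted p = 0.236). The ATF4 transcript itself had -0.06 (adjusted p = 0.79). ATF4 is controlled largely at translation, which these data do not measure.

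Of 23 tested interferon-stimulated genes, HERC6, a ubiquitin ligase-like gene, was the only call. HERC6 rose from 38.2 ± 1.26 to 53.1 ± 2.22 FPKM (SD, n = 3 each, log2 change 0.46, limma adjusted p = 0.0196). By share of summed FPKM the list was at 1.415%, 1.441% and 1.298% in controls. In ZNF207 libraries it was at 1.503%, 1.547% and 1.295%, so by share the groups overlapped. The list's median log2 change was 0.18, against -0.0078 over all tested genes. Its estimates were above 0 in 19 genes and below 0 in 4, 13 of the 23 were higher at an unadjusted p under 0.05, against 5.08% of all tested genes, and 14 of the 23 were higher without overlap between the groups, against 7.61%. The WARS1 change of 0.26 thus stood above the median of this list, and near that of UBE2L6, the ISG15-conjugating enzyme, at 0.26 (chosen after its values were seen, limma adjusted p = 0.0985). IRF1, a transcription factor of the interferon response, had 0.17, below the list's median (limma adjusted p = 0.305), and its groups did not overlap. PSMB9, CXCL10 and TAP1 of the list had 0.44, 0.31 and 0.29, also without overlap (limma adjusted p = 0.0714, 0.153 and 0.0786). The 4 genes with estimates below 0 were IFI27 at -0.11, IFI6 at -0.09, MX1 at -0.04 and IRF9 at -0.0082. Their groups overlapped (limma adjusted p = 0.781, 0.775, 0.952 and 0.967). IFI6 and IFI27 were the most abundant genes of the list, at 2431 and 1486 FPKM in controls. IDO1, which breaks down tryptophan and is induced by interferon gamma, lay below the filter at 0.111 and 0.176 FPKM.

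Of 20 genes of tRNA processing, export and delivery to the ribosome, which include the tRNA exporter XPOT of the ATF4 list as well, 0 passed, with a median of -0.03, and 1 was lower at an unadjusted p under 0.05, against 7.03% of all tested genes. Without overlap 4 of the 20 were higher, against 7.61%, and 1 was lower, against 10.4%. The list also holds TARS3, a threonyl-tRNA synthetase gene outside the 37. TARS3 was low, at 1.89 and 2.44 FPKM, and higher without overlap (0.25, SE 0.14, limma adjusted p = 0.506). EEF1D, an exchange factor subunit for the elongation factor that carries charged tRNA, was at 248 ± 12.3 FPKM in controls and 222 ± 2.16 FPKM in ZNF207 libraries (log2 change -0.16, limma adjusted p = 0.25). ELAC2, which trims the 3′ end of tRNA precursors, had 0.13 (adjusted p = 0.468). Of 17 tested genes of mitochondrial translation and transcription, 0 passed, with a median of 0.02, and 0 had an unadjusted p under 0.05. The smallest p-values there were those of MTRF1, a release factor family member, with 0.20 and TFB2M, a mitochondrial transcription factor, with 0.15, both at an adjusted p of 0.555.

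**Figure D4:**
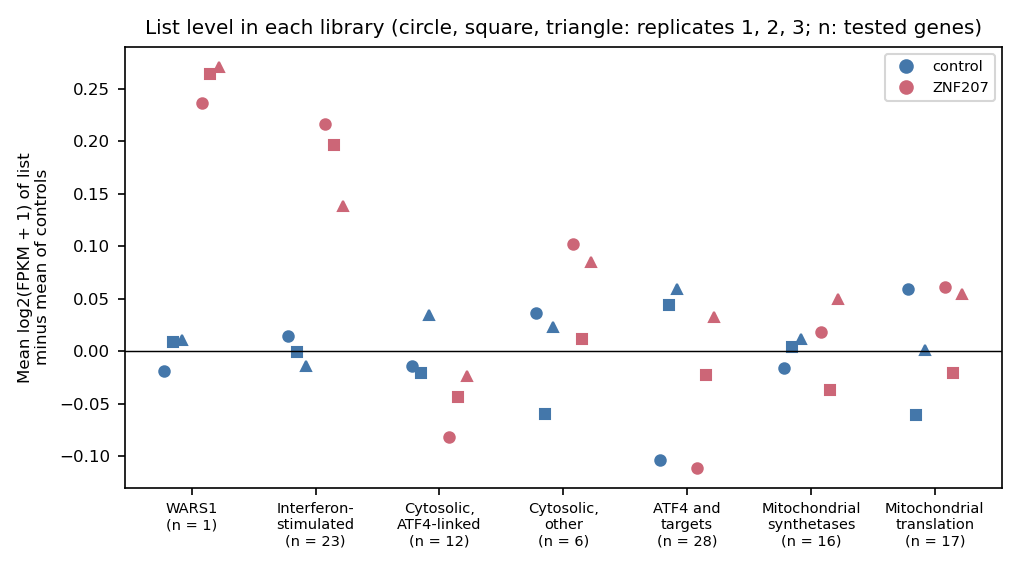
Mean log2(FPKM + 1) of each gene list in each library, less the mean of the 3 controls (y axis), with controls in blue, ZNF207 overexpression in red and replicates 1, 2 and 3 as circles, squares and triangles; n is the number of tested genes. The groups do not overlap for WARS1 and the interferon-stimulated list, both higher with ZNF207. Nor do they, by a narrow margin, for the ATF4-linked synthetases, which are lower on this scale. By share of summed FPKM the groups overlap for the interferon-stimulated list and the ATF4-linked synthetases, but not for WARS1. Replicate 1 is the lowest of both groups for the list of ATF4 and its targets.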

How the data were processed

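The authors deposited a table of FPKM values with 1 column for each of the 6 libraries. The build hg38 and the tools Bowtie2, RSEM (1.3.1) and DESeq2 (version 1.4.5) are named per the submitters' processing notes, without their roles; annotation and strand setting are not stated. Columns were matched to groups and replicates by their names alone. Of several rows with a symbol, that of highest mean was used.

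Values were analysed as log2(FPKM + 1), which understates changes of low genes, for 13185 genes at 1 FPKM or more in at least 3 libraries. limma 3.58.1 in R 4.3.3 (mean-variance trend, two-sided) compared the groups. P-values were adjusted by Benjamini-Hochberg across the tested genes and called under 0.05. Single values were compared by exact permutation tests.

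The members and lists were chosen with earlier results of these data known. Every member may be named; values per library are given for WARS1, the 3 smallest p-values in each role and the highest and lowest genes of each compartment, and beside this rule for WARS2, the counterpart of WARS1. Of each context list the called genes, or the 2 with the smallest p, are named. Cell markers, ATF4, IRF1, IDO1, UBE2L6, PSMB9, CXCL10, TAP1, IFI27, IFI6, MX1, IRF9 and TARS3 lie outside this rule and were chosen after their values were seen. Shared transcript sequence was found with BLAST 2.17.0. In the annotation, 29 members share their listed locus with another row, 7 overlap a protein-coding gene and 6 have a named antisense gene, so their values are uncertain.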

Additional observations from a re-analysis of the deposited data

How the results depend on the processing

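Over 16 alternatives, 36 members other than WARS1 were never called (lowest limma adjusted p 0.127, LARS1). Of these, 18 kept the sign of their estimate under every alternative and 18 changed it under at least 1. PARS2 was not tested at a filter of 5 FPKM. WARS1 was called in 3 settings: 0.26 at a filter of 5 FPKM (adjusted p = 0.0488), 0.28 with quantile scaling (0.0438) and 0.26 with the replicate number as a block (0.0283), with 1 member called in each. Its adjusted p ran from 0.0283 to 0.225 over all alternatives. The number of called genes, 28, became 4 without a filter, 64 at 5 FPKM, 17 with median-of-ratios scaling, 5 without a variance trend and 145 with the replicate block; leaving out a library gave 4 to 36. Same-numbered libraries deviated together with r of 0.136, 0.0088 and 0.175 across genes, so the numbers were not taken as pairs, and not every library correlated best with its own number. Leaving out a library moved the mitochondrial median to between -0.027 and 0.061 (without overexpression replicates 3 and 2). The causes were not tested. The unknown depth and 3 libraries a group limit all of these values.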

Other observations

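Of the 28 genes listed as ATF4 and its targets, 18 (64.3%) had their lowest value in replicate 1 of both groups, against 2512 (19.1%) of all tested genes. Among the 12 ATF4-linked synthetases these were AARS1, CARS1, GARS1, SARS1 and TARS1, and among the 6 other cytosolic synthetases there were 0. Lowest in replicate 2 of both groups were 5 of these 6, 3 of the 12 ATF4-linked and 5 of the 16 mitochondrial synthetases. Of all 37 members 14 were lowest there, against 1827 of 13185 tested genes. The mean log2(FPKM + 1) of the 28 genes listed with ATF4 was 5.86, 6.01 and 6.03 in controls and 5.86, 5.95 and 6.00 in overexpression libraries. This split was chosen after the values were seen, rests on the match of columns by name, and what replicate 1 of the groups shared was not tested.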
